A study of Mus musculus with 12 samples.

Results

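The genes described here are the D and E cyclins and the cyclin-dependent kinase (CDK) inhibitors of mouse liver, namely Ccnd1, Ccnd2, Ccnd3, Ccne1, Ccne2, Cdkn1a, Cdkn1b, Cdkn1c, Cdkn2a and Cdkn2c. These 10 genes were taken by name from the 21807 genes of the count tables. The rule uses no measured value, but the genes were chosen with earlier results of these data known. The study induced cholangiocarcinoma (CCA), a cancer with bile duct features, in livers of C57BL/6J mice and set the tumor tissue against liver of untreated mice of the same strain. In NICD1/Akt mice, plasmids for the Notch1 intracellular domain (NICD1, 10 µg per mouse), myristoylated AKT (myr-AKT, 10 µg per mouse) and the Sleeping Beauty transposase were given by hydrodynamic tail vein injection (HTVi), a rapid large-volume injection that carries DNA mainly into hepatocytes. The methods name male mice of 5 weeks of age at the injection. Stages are given in weeks after HTVi, and the control livers bear the same stage labels. Stranded mRNA libraries of 12 livers were sequenced in 4 groups of 3: NICD1/Akt livers at 3 weeks (libraries 1 to 3), control livers at 3 weeks (10 to 12), NICD1/Akt livers at 2 weeks (33 to 35) and control livers at 2 weeks (30 to 32). Controls were not injected, so that the effect of the injection and that of the 2 oncogenes cannot be told apart. The labels do not say that each library is a separate mouse, and p-values measure only the spread between these libraries.

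D cyclins bind CDK4 and CDK6 in G1 and start the phosphorylation of the retinoblastoma protein, which releases E2F factors. E cyclins then activate CDK2 and carry the cell into S phase. The Cip/Kip inhibitors p21 (Cdkn1a), p27 (Cdkn1b) and p57 (Cdkn1c) bind cyclin and CDK complexes, whereas the INK4 inhibitors, among them p16Ink4a (Cdkn2a) and p18Ink4c (Cdkn2c), bind CDK4 and CDK6 alone. Adult hepatocytes are mostly quiescent, and cyclin D1 is known as the cyclin that rises when they re-enter the cycle.

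Total counts ran between 13136892 and 19594839 per library. Notch1 and Akt1, whose RNA the plasmids can add to, stood at 325 to 414 and 595 to 855 CPM (counts scaled to library size) in NICD1/Akt livers at 3 weeks, against 42.1 to 45.5 and 74.5 to 85.3 CPM in control livers. At 2 weeks Akt1 had 285, 324 and 925 CPM in NICD1/Akt livers, against 90.6, 89.9 and 381 CPM in control livers 30, 31 and 32. Library 32, labelled control, thus lay among the NICD1/Akt livers, and its summed CPM over 8 cholangiocyte markers was 2045, against 89.5 and 90.3 in the other control livers of that stage. Library 35 stood apart from libraries 33 and 34. The Y-linked gene Ddx3y had 52.4 to 126 CPM at 3 weeks and 57 CPM in library 32, but at most 0.40 CPM in the other 5 libraries of 2 weeks, so that stage and sex cannot be told apart. Results at 2 weeks are therefore also given without library 32. CPM in the text are scaled by the trimmed mean of M-values (TMM) over all 12 libraries. Fold changes are log2 values from edgeR, with adjusted p-values of its quasi-likelihood test over all genes, and a gene was called at an adjusted p under 0.05.

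At 3 weeks 7 of the 10 genes were higher in NICD1/Akt than in control livers (Ccnd1, Ccnd2, Ccne2, Cdkn1b, Cdkn1c, Cdkn2a and Cdkn2c) and 1, Cdkn1a, was lower. Cdkn2a passed the filter on low counts only through the NICD1/Akt livers, so it could not have been called lower. Of all 13408 genes tested, 38.9% were called higher and 33.1% lower, so that most expressed genes were called. The median log2 fold change of the 10 genes was 1.24, against 0.06 over all genes tested. Groups did not overlap, with the NICD1/Akt livers higher, for the same 7 genes (41.3% of all genes) and, with the NICD1/Akt livers lower, for Cdkn1a and Ccnd3 (35.5% of all genes). Scaled by library size alone, without TMM, the median over all genes was 0.77. Of the 13408 genes, 9076 were then called higher and 1287 lower. Under this scaling 8 members were called higher and none lower, with Ccnd3 turned to 0.59 and Cdkn1a at -0.04. The directions of Ccnd3 and Cdkn1a are thus relative to the other genes, and fewer cells of a type and less RNA per cell cannot be told apart in this tissue RNA. Markers of several cell types moved at the same stage. All 8 hepatocyte markers were called lower, with sums of 27958 to 39923 CPM in NICD1/Akt livers, against 114104 to 119467 CPM in control livers. All 8 cholangiocyte markers were called higher, with sums of 3510 to 4150 CPM against 93.7 to 136 CPM. Of 8 stellate cell and fibroblast markers 6 were called higher, with sums of 2494 to 3400 CPM against 206 to 302 CPM. Called higher and lower were 7 and 1 of 8 macrophage markers, 0 and 4 of 4 Kupffer cell markers, 2 and 2 of 7 endothelial markers, 0 and 4 of 4 tested erythroid markers, 0 and 1 of 2 tested lymphocyte markers and 0 and 0 of 2 tested neutrophil markers. Scaled by library size alone, the counts were 8 and 0 for stellate cell and fibroblast, 7 and 0 for macrophage, 0 and 2 for Kupffer cell, 4 and 1 for endothelial, 0 and 3 for erythroid, 0 and 0 for lymphocyte and 2 and 0 for neutrophil markers, and the hepatocyte and cholangiocyte counts stayed at 8 each. No hepatocyte, cholangiocyte or stellate cell marker was at 0 in a whole group, and the part of the marker lists in the results was not tested.

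**Figure D1:**
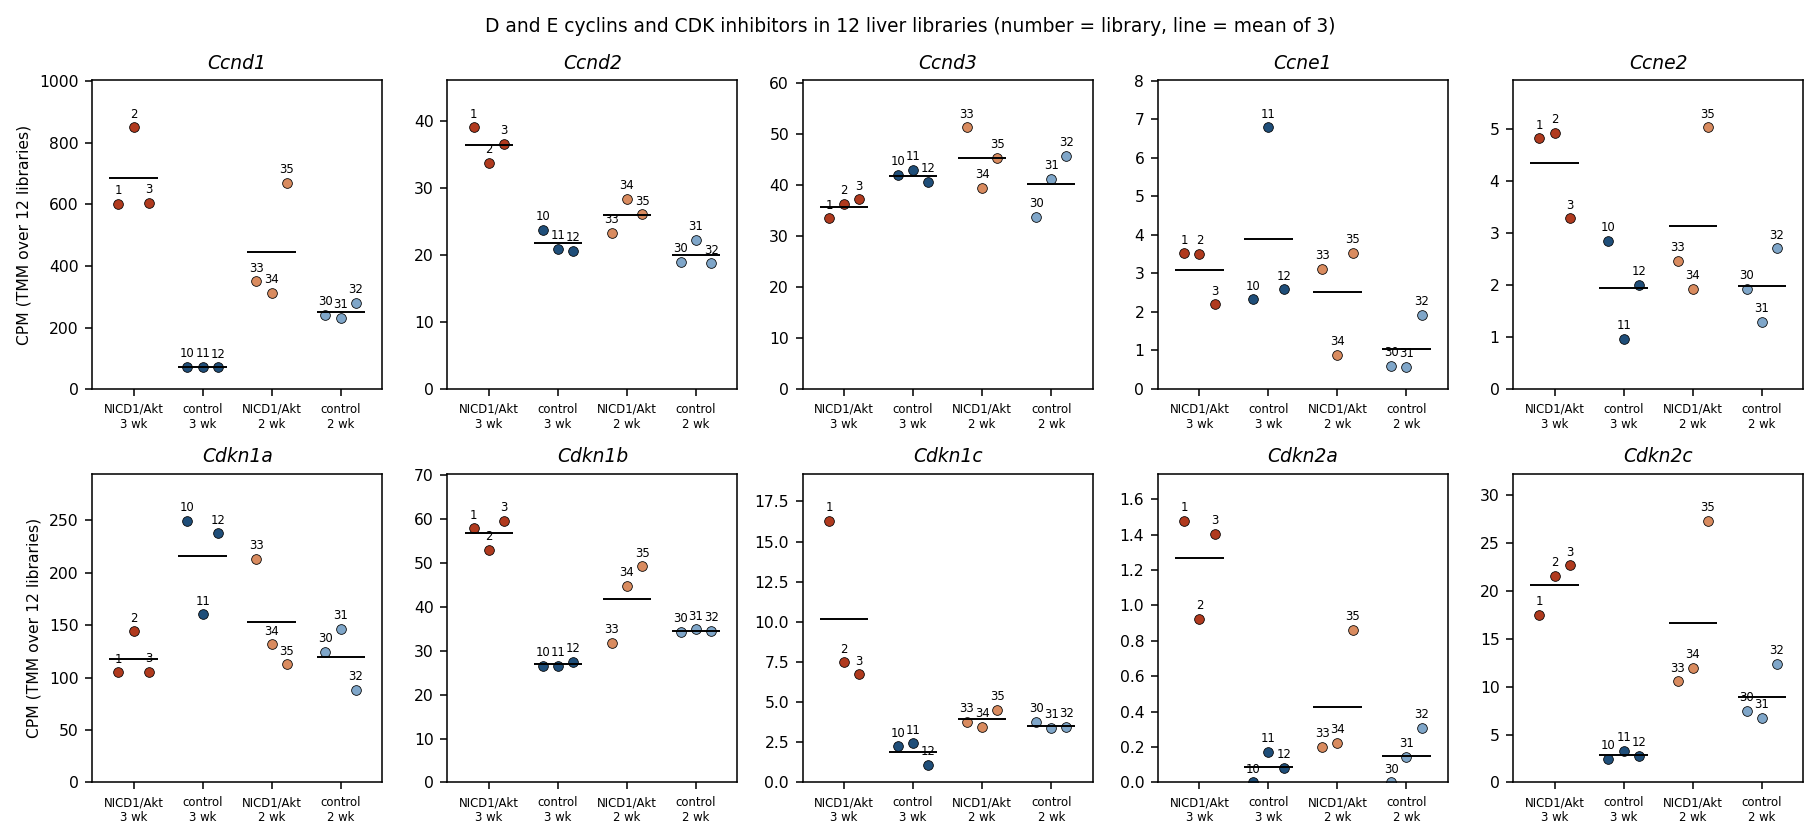
CPM (vertical axis, linear, TMM over 12 libraries) of each of the 10 genes in NICD1/Akt and control livers at 3 weeks and at 2 weeks. Each point is 1 library, with its number, and each line is the mean of 3. Ccnd1 reached 851 CPM in library 2, control libraries 10 to 12 lay close together at 70.7 to 72.7 CPM, and library 35 was the highest of its group for Ccnd1, Ccne1, Ccne2, Cdkn1b, Cdkn1c, Cdkn2a and Cdkn2c.

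Cyclin D1 showed the largest change of the D cyclins. Ccnd1 had 603, 851 and 605 CPM in the 3-week NICD1/Akt livers, against 71.6, 72.7 and 70.7 CPM in control livers. The lowest NICD1/Akt liver lay far above the highest control liver, and the control livers hardly varied. The log2 fold change was 3.37 ± 0.17 (SE, n = 3 each), or 10.4-fold, with an adjusted p of 1.06e-06. At 2 weeks Ccnd1 had 350, 313 and 669 CPM in NICD1/Akt livers, against 242, 231 and 281 CPM in control livers. The groups did not overlap here either, but library 35 was well above the other NICD1/Akt livers, and the fold change of 0.83 ± 0.33 did not pass the adjusted threshold (unadjusted p = 0.0405, adjusted p = 0.52 in edgeR). In GENCODE M21, 23.4% of the exon bases of Ccnd1 lie opposite exons of LTO1. LTO1 averaged 22.4 CPM in the 3-week NICD1/Akt livers and 16.4 CPM in control livers, well below Ccnd1 in every group.

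Ccnd2, the D cyclin better known from gonad and lymphoid cells, moved less. It had 39.0, 33.8 and 36.6 CPM in the 3-week NICD1/Akt livers, against 23.7, 20.9 and 20.6 CPM in control livers. All NICD1/Akt livers were higher, by 0.86 ± 0.10 on the log2 scale (adjusted p = 1.05e-04 in edgeR). At 2 weeks Ccnd2 had 23.2, 28.4 and 26.1 CPM in NICD1/Akt livers, against 19.0, 22.3 and 18.7 CPM in control livers. These groups did not overlap but lay near each other, at a fold change of 0.38 ± 0.13 (unadjusted p = 0.0261, adjusted p = 0.52 in edgeR). Ccnd3, which most tissues express, had 33.4, 36.2 and 37.2 CPM in the 3-week NICD1/Akt livers, against 41.9, 42.9 and 40.6 CPM in control livers. Although these CPM did not overlap, the fold change within the stage was -0.12 ± 0.08 and was not called (adjusted p = 0.22 in edgeR). At 2 weeks Ccnd3 ranged from 39.5 to 51.3 CPM in NICD1/Akt livers and from 33.7 to 45.7 CPM in control livers, with overlap.

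Per kilobase of exon, cyclin D1 made up nearly all D cyclin RNA of the NICD1/Akt livers. The share of Ccnd1 in the D cyclin sum was 94.1% to 95.9% in NICD1/Akt livers at 3 weeks, against 67.6% to 68.8% in control livers. At 2 weeks the share was 89.9% to 94.7% in NICD1/Akt livers, against 87.4% to 89.8% in control livers. The control livers of 3 weeks, with Ccnd1 at 15.2 ± 0.21 CPM per kb (SD, n = 3), thus differed from all 9 other libraries, and Ccnd3 was the next most abundant D cyclin there at 4.76 ± 0.13 CPM per kb. Exon lengths are the union of GENCODE M21 exons, which can differ from the annotation that was counted.

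**Figure D2:**
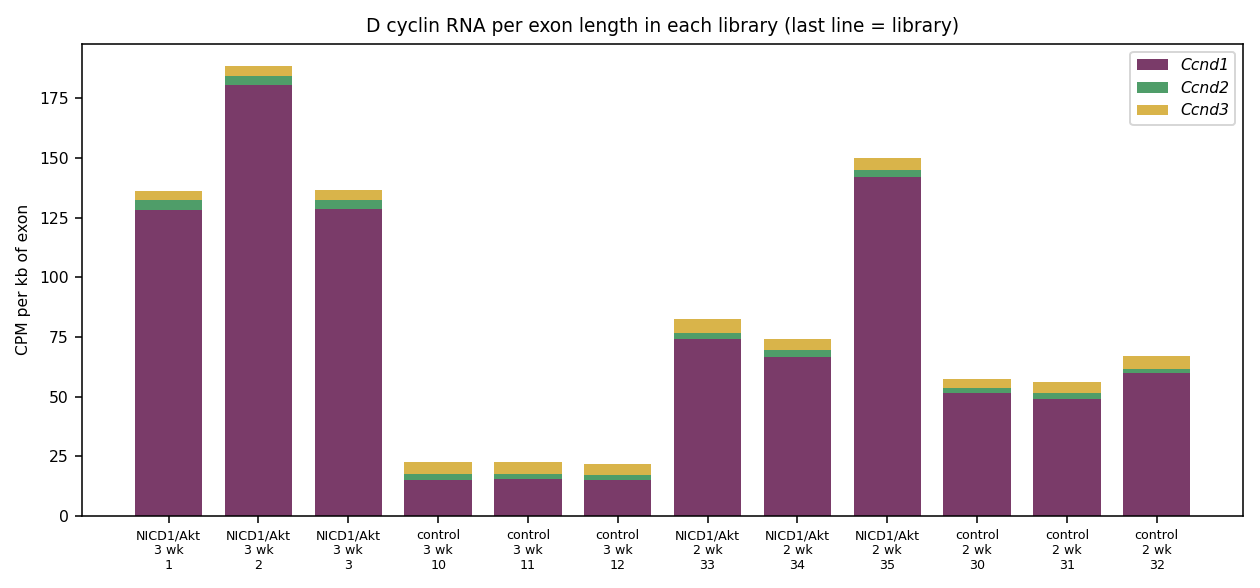
D cyclin RNA in each library as CPM per kilobase of exon (vertical axis, from 0), stacked by gene, for NICD1/Akt and control livers at 3 weeks and at 2 weeks. Bars are single libraries. Total D cyclin RNA was 136 to 188 CPM per kb in NICD1/Akt livers at 3 weeks, against 21.8 to 22.6 CPM per kb in control livers.

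The E cyclins were low, between 0.58 and 6.79 CPM. Ccne1 had 3.52, 3.52 and 2.20 CPM in the 3-week NICD1/Akt livers, against 2.33, 6.79 and 2.58 CPM in control livers. Library 11 alone lay above all the others and the groups overlapped, with a log2 fold change of -0.21 ± 0.41 (adjusted p = 0.66 in edgeR), or 0.44 without library 11. At 2 weeks Ccne1 had 3.12, 0.89 and 3.53 CPM in NICD1/Akt livers, against 0.60, 0.58 and 1.93 CPM in control livers, where library 32 was the highest. The fold change there was 1.31 ± 0.70 with overlapping groups (adjusted p = 0.52 in edgeR), and 2.11 without library 32, also not called. Ccne2 differed from Ccne1 at 3 weeks. It had 4.81, 4.92 and 3.27 CPM in NICD1/Akt livers, against 2.85, 0.96 and 2.00 CPM in control livers. The groups did not overlap and the fold change was 1.28 ± 0.35 (adjusted p = 0.0105 in edgeR). At 2 weeks Ccne2 had 2.46, 1.92 and 5.02 CPM in NICD1/Akt livers, against 1.92, 1.29 and 2.7 CPM in control livers, with overlap. Opposite Ccne2, exons of Ints8 cover 17.4% of its exon bases. Ints8 averaged 25.7 CPM in the 3-week NICD1/Akt livers and 28.5 CPM in control livers, above Ccne2, and whether counting used the strand is not given in the sources used here, so the level of Ccne2 is uncertain.

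Of the Cip/Kip inhibitors, p27 and p57 RNA was higher at 3 weeks and p21 RNA lower. Cdkn1a, a direct p53 target that arrests the cycle, had 105, 144 and 105 CPM in the 3-week NICD1/Akt livers, against 250, 160 and 238 CPM in control livers. Library 11 had the lowest control value and lay near library 2, yet the groups did not overlap. The fold change was -0.76 ± 0.19 (adjusted p = 0.0076 in edgeR). A list of 10 genes of the immediate early and heat shock response, which react to handling of tissue, moved with it, and their summed CPM were 434 to 548 in NICD1/Akt livers at 3 weeks, against 2662 to 3165 in control livers. Of these, 8 were called lower and 1, Jun, higher, beside 33.1% and 38.9% of all genes tested. Scaled by library size alone, 5 were called lower, beside 1287 of 13408 genes tested. None of the 10 was at 0 in a whole group. The list's sums at 2 weeks were 280 to 393 CPM in NICD1/Akt livers and 186 to 336 CPM in control livers, and its part in the change of Cdkn1a was not tested. Against all 6 control livers of both stages the fold change of Cdkn1a was -0.51 and was not called (adjusted p = 0.21 in edgeR, with a range of 6.46e-04 to 0.87 over 14 alternatives, 11 of them called). At 2 weeks Cdkn1a had 214, 132 and 113 CPM in NICD1/Akt livers, against 125, 146 and 88.1 CPM in control livers, with overlap and a fold change of 0.35 ± 0.29. Per kilobase Cdkn1a was the most abundant of the 3 Cip/Kip RNAs in every library. It made up 58.8% to 72.6% of their sum in NICD1/Akt livers at 3 weeks, against 86.5% to 91.1% in control livers. At 2 weeks the share was 70.9% to 87.2% in NICD1/Akt livers, against 72.7% to 81.5% in control livers.

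Since Cdkn1a is read here beside other p53 targets, the 250 bases before its upstream RefSeq start are printed, at chr17:29090729-29090978 on the plus strand of GRCm38.p6, 5′ to 3′. Capitals mark the match to a p53 half-site, 51 to 42 bases before that start. The window of the other RefSeq start of Cdkn1a held no such match. Windows with such a match, out of 32841 RefSeq windows from 250 bases before to 50 after a start, were 1.93% on either strand.
Cdkn1a upstream: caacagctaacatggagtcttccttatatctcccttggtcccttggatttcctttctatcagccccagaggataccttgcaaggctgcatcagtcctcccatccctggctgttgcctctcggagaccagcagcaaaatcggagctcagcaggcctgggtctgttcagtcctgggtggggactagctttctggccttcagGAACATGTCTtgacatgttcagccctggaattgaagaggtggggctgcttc

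Cdkn1b, the p27 gene, whose transcription FoxO factors are known to drive, had 57.9, 53.1 and 59.7 CPM in the 3-week NICD1/Akt livers, against 26.7, 26.6 and 27.5 CPM in control livers. Both groups were tight and far apart, at a fold change of 1.19 ± 0.09, or 2.29-fold (adjusted p = 7.05e-06 in edgeR). At 2 weeks Cdkn1b had 31.7, 44.8 and 49.2 CPM in NICD1/Akt livers, against 34.3, 34.9 and 34.6 CPM in control livers, where library 33 lay below all controls. Cdkn1c, the imprinted p57 gene, had 16.3, 7.47 and 6.73 CPM in the 3-week NICD1/Akt livers, against 2.24, 2.44 and 1.08 CPM in control livers. Library 1 was the highest by a wide margin, and without it the fold change was 2.00, against 2.53 ± 0.44 with all libraries (adjusted p = 9.28e-04 in edgeR). At 2 weeks the groups overlapped for Cdkn1c, with 3.79, 3.47 and 4.51 CPM in NICD1/Akt livers and 3.78, 3.38 and 3.47 CPM in control livers. Exons of the antisense gene Gm44732, not analysed here, lie opposite 30.7% of the exon bases of Cdkn1c.

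Both INK4 genes were higher at 3 weeks. Cdkn2c, the p18Ink4c gene, had 17.5, 21.6 and 22.7 CPM in the 3-week NICD1/Akt livers, against 2.50, 3.31 and 2.75 CPM in control livers. This 7.79-fold difference, 2.96 ± 0.17 on the log2 scale, was well beyond the spread (adjusted p = 2.15e-06 in edgeR). At 2 weeks Cdkn2c had 10.6, 12 and 27.4 CPM in NICD1/Akt livers, against 7.49, 6.76 and 12.4 CPM in control livers. Library 35 was highest, and library 32 was above 33 and 34, so that the groups overlapped at a fold change of 0.92 ± 0.44 (unadjusted p = 0.0754, adjusted p = 0.52 in edgeR). Cdkn2a was near the limit of detection. It had 39, 25 and 30 counts in NICD1/Akt livers at 3 weeks, against 0, 2 and 1 counts in control livers. With so few control counts, passing the filter on low counts required every NICD1/Akt liver to lie above every control liver. The direction and the lack of overlap of Cdkn2a thus add no support. Pooled counts of 94 against 3 gave a ratio of CPM of 14.7 (adjusted p = 5.82e-04 in edgeR). Its 95% interval of 4.88 to 72.5 covers counting error only. At 2 weeks Cdkn2a had 3, 3 and 22 counts in NICD1/Akt livers, against 0, 2 and 4 counts in control livers. Most of the counts of that stage came from library 35, and Cdkn2a did not pass the filter on low counts, so that 9 of the 10 members were tested at 2 weeks.

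One count per gene covers both transcripts of Cdkn2a, p16Ink4a and p19Arf, which start from separate promoters, and the counts do not tell them apart. The 250 bases before each start are printed because 1 of them holds an E2F word and the other does not. The p19Arf start is the upstream one (chr4:89294620-89294869) and the p16Ink4a start the downstream one (chr4:89282193-89282442), both on the minus strand of GRCm38.p6, 5′ to 3′, from RefSeq. Capitals mark TTTCCCGC, 99 to 92 bases before the upstream start. The E2F words searched on both strands were TTTCCCGC, TTTGGCGC and TTTCGCGC, and 1.85% of all windows held any of them.
Cdkn2a upstream start: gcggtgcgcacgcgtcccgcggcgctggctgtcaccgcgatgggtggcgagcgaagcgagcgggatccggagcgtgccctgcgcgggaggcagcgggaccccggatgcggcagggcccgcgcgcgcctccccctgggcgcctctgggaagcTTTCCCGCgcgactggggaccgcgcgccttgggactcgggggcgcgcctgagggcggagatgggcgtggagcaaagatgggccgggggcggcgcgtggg
Cdkn2a downstream start: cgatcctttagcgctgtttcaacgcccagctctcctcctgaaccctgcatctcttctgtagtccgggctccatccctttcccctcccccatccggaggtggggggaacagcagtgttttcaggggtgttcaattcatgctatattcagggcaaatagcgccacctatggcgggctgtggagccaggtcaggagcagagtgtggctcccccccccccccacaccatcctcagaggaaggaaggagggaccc
Windows were at hand for 6 members (10 windows: Ccnd3, Cdkn1a, Cdkn2a and Cdkn2c with 2 each, Ccne1 and Cdkn1b with 1). The RBPJ word GTGGGAA was in none of the 10, and 6.38% of all windows held it. The FoxO word GTAAACA was in a window of Ccnd3 (3.65% of all windows) and the E-box CACGTG in one of Cdkn2c (7.15%). The cyclic AMP response element word TGACGT was in the other window of Ccnd3 (7.51%).

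At 2 weeks no member was called in edgeR (0 of 9, and 0% of 13041 genes). At an unadjusted p under 0.05, Ccnd1 and Ccnd2 were higher (4.9% of all genes) and none was lower (3.69%), out of 1120 such genes in all. DESeq2 called 27 genes and edgeR's likelihood ratio test 12 genes, none of them a member. All 9 fold changes were positive, with a median of 0.38 against 0.01 over all genes. Groups did not overlap for Ccnd1 and Ccnd2, with the NICD1/Akt livers higher (7.55% of all genes), and for no member with the NICD1/Akt livers lower (8.53%). Without library 32 still none was called, with Cdkn2c at 1.25 and Ccnd1 at 0.92. Without library 35 none was called either, and Cdkn2c was at 0.33 and Ccnd1 at 0.38, below their values of 0.92 and 0.83 with all libraries. Against the 5 control livers of both stages other than library 32, a comparison added after the data were seen, Cdkn2c alone was called, at 1.90 (adjusted p = 0.048 in edgeR, the lowest of 14 alternatives that reached up to 0.88). In that comparison 867 of 12988 genes tested were called higher and 167 lower.

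**Figure D3:**
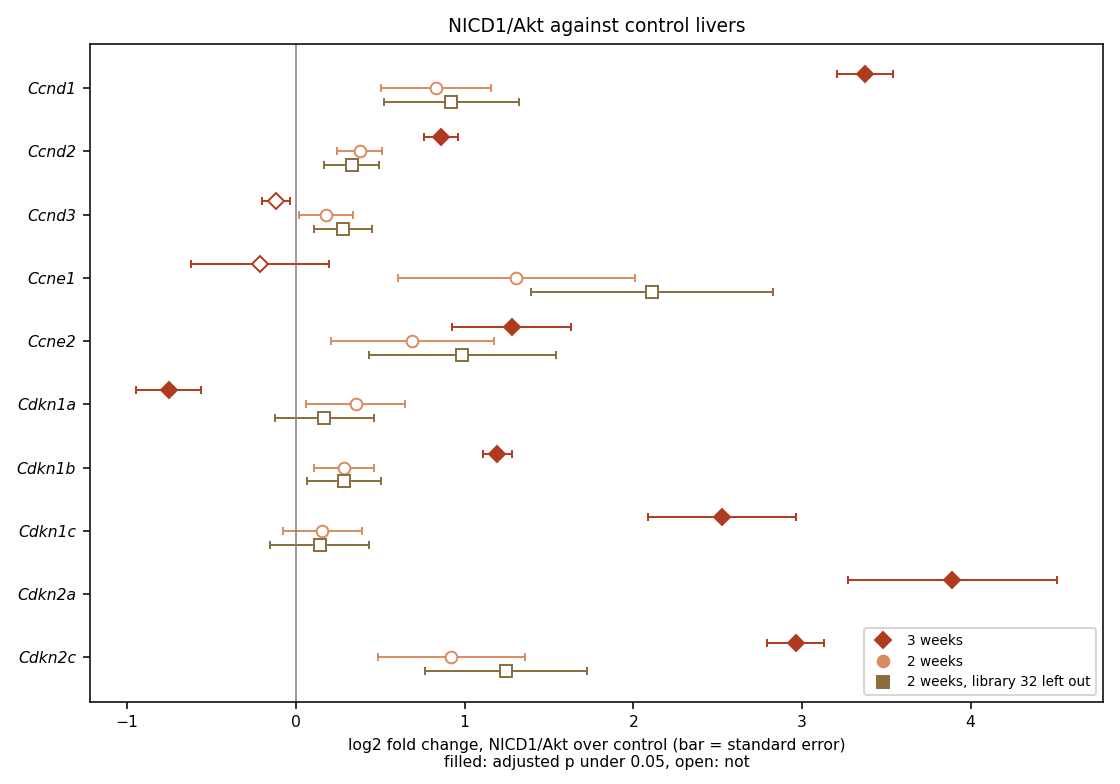
Log2 fold change of NICD1/Akt over control livers (horizontal axis, bars are standard errors) for each member at 3 weeks, at 2 weeks, and at 2 weeks without library 32. Filled symbols passed an adjusted p under 0.05. Effects at 3 weeks ran from -0.76 for Cdkn1a to 3.89 for Cdkn2a, and Cdkn2a has no value at 2 weeks because it was filtered out there.

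The effects of both stages were then compared in 1 fit over all 12 libraries. The effect at 3 weeks exceeded that at 2 weeks for 4 members, Ccnd1, Cdkn1b, Cdkn1c and Cdkn2c (15% of 13829 genes), and lay below it for 1, Cdkn1a (15.8%). Each difference is the stage change of the NICD1/Akt livers less the stage change of the control livers. For Ccnd1 the difference was 2.44 ± 0.37, made up of 0.62 in NICD1/Akt livers and -1.81 in control livers. For Cdkn2c it was 1.93 ± 0.51, made up of 0.29 and -1.64. Most of both differences thus lay in the control livers. For Cdkn1c the difference of 2.25 ± 0.53 was made up of 1.36 in NICD1/Akt livers and -0.89 in control livers. For Cdkn1b it was 0.80 ± 0.20, from 0.43 and -0.36. Cdkn1a had a difference of -1.22 ± 0.39, from -0.38 and 0.85, but its call was lost in 8 of 12 fits that each left out 1 library. Cdkn2c lost its call in 1 of these fits, that without library 10 (1.84, adjusted p = 0.0517 in edgeR, in a range of 7.15e-04 to 0.0517 over 17 alternatives).

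Control livers themselves differed between stages. At 3 weeks against 2 weeks, Ccnd1 (-1.81 ± 0.27, adjusted p = 5.41e-04 in edgeR) and Cdkn2c (-1.64 ± 0.38, adjusted p = 0.0070) were called lower (20.4% of all genes). Ccne1 (1.92 ± 0.64) and Cdkn1a (0.85 ± 0.28) were called higher (17.4%), at adjusted p-values of 0.0373 and 0.0331. The call of Ccne1 was lost without library 30, 31 or 11 and that of Cdkn1a without 30, 32, 10 or 12, whereas Ccnd1 and Cdkn2c were called in all 6 such fits. Mki67, the Ki-67 proliferation antigen, had 2.16, 0.70 and 1.58 CPM in control livers at 3 weeks, against 11.1, 7.55 and 34.1 CPM in control livers at 2 weeks. All 11 mitotic genes of a list were lower at 3 weeks in control livers, with a median of -3.42 against -0.10 over all genes. Their summed CPM were 4.53 to 9.33 at 3 weeks, against 53.2, 32.6 and 129 in control livers 30, 31 and 32. Library 32 was thus the highest, and a median without it is not given here. All 10 immediate early and heat shock genes were higher in control livers at 3 weeks (median 3.71, and 9 under the 2 other scalings). Their part in these stage differences was not tested.

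In NICD1/Akt livers, 3 members were called higher at 3 weeks than at 2 weeks (11.1% of all genes), Ccnd2 (0.49 ± 0.11), Cdkn1b (0.43 ± 0.14) and Cdkn1c (1.36 ± 0.36), and none lower (17.4%). Only Ccnd2 was called in each fit without 1 library and in the fit of the 6 libraries alone. The call of Cdkn1b was lost in 5 of the 6 fits that left out 1 library, all but that without library 35, and in the fit of the 6 libraries alone. Cdkn1c lost its call without library 33, 34 or 1 and in the fit of the 6 libraries alone. Without library 35, 6 members were called higher, beside 3125 of 13948 genes tested, and none lower, beside 3564 genes. Among the 6 were Ccnd1 at 1.04 (adjusted p = 9.52e-04 in edgeR, the lowest of 12 alternatives that reached up to 0.30), Cdkn2a at 2.54 and Cdkn2c at 0.86.

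**Figure D4:**
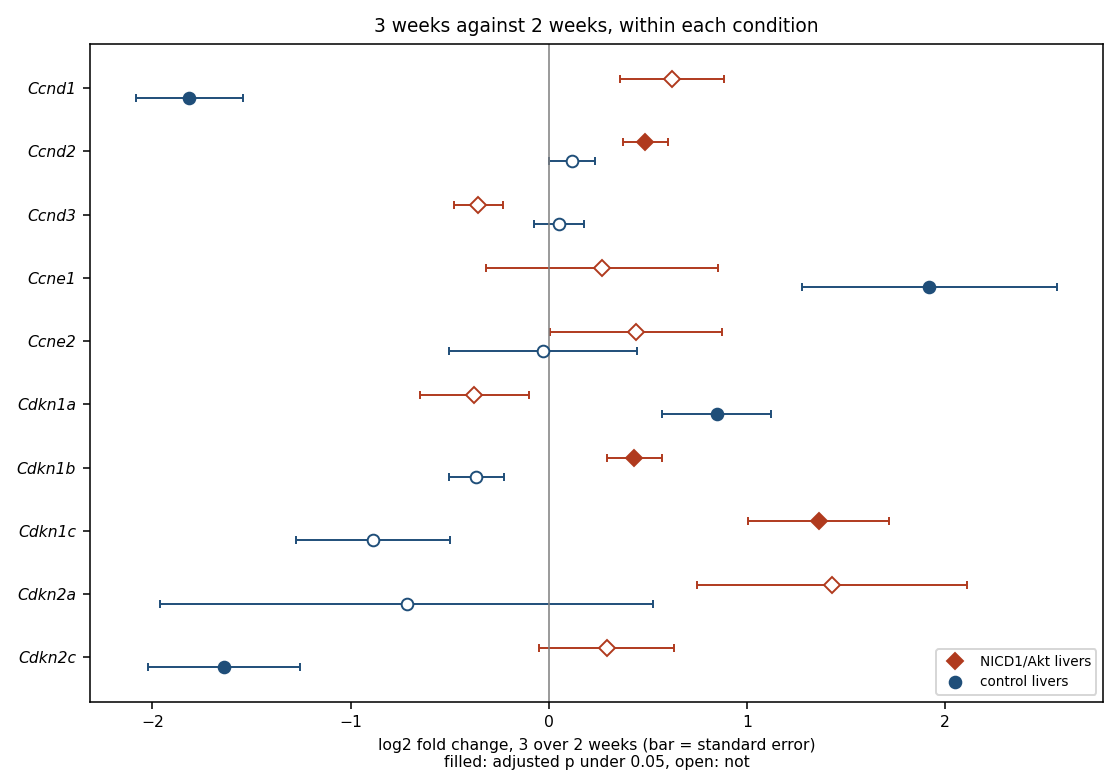
Log2 fold change of 3 weeks over 2 weeks (horizontal axis, bars are standard errors) for each member, in NICD1/Akt livers (diamonds) and in control livers (circles). Filled symbols passed an adjusted p under 0.05. Ccnd1 and Cdkn2c lay at 0.62 and 0.29 in NICD1/Akt livers, where they were not called, against -1.81 and -1.64 in control livers.

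The partners of these genes were read at 3 weeks from lists of known function, where 38.9% of all genes tested were called higher and 33.1% lower. Of 6 G1 kinases and pocket proteins, 5 were higher and none lower, with a median of 1.27. Cdk6, a D cyclin kinase, had 114, 116 and 112 CPM in NICD1/Akt livers, against 21.9, 23.5 and 23.1 CPM in control livers, a change of 2.44 ± 0.09. Cdk4 (1.48 ± 0.11), the other D cyclin kinase, Cdk2 (1.05 ± 0.12), the E cyclin kinase, and the pocket proteins Rbl1 (2.51 ± 0.25) and Rb1 (0.63 ± 0.12) were called as well. The 3 other CDK inhibitors on the list, the INK4 genes Cdkn2b (3.37 ± 0.55) and Cdkn2d (2.82 ± 0.28) and the CDK phosphatase gene Cdkn3 (5.06 ± 0.44), were all higher. Cdkn2b and Cdkn3 were below 0.35 CPM in all control livers of 3 weeks, and passed the filter on low counts only through the NICD1/Akt livers. Of 10 E2F and DP factors, 6 were higher and 1 lower (median 0.60), or 8 and 0 when scaled by library size alone. Under that scaling 9076 of 13408 genes tested were called higher and 1287 lower. E2f1, an activating E2F, changed by 2.60 ± 0.25, and E2f6, a repressor that does not bind the retinoblastoma protein, by -0.97 ± 0.14. At 3 against 2 weeks, list medians in control and NICD1/Akt livers were -0.32 and 0.64 for G1 kinases and pocket proteins. They were -1.74 and 0.41 for the other CDK inhibitors and 0.30 and 0.39 for E2F and DP factors. E2f1 changed by -1.66 and 0.40, and E2f6 by 1.31 and 0.26. The part of the control livers in the 3-week changes was not tested.

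Genes of S phase and mitosis had larger medians. Of 13 S phase genes 12 were higher (median 3.79), with Ccna2, the S phase cyclin, at 6.08 ± 0.23 and the replication helicase genes Mcm2, Mcm5 and Mcm6 at 4.16 to 5.10. The exception, Rrm2, was at 0.31 and not called, although all 13 were called higher when scaled by library size alone. All 11 mitotic genes were higher (median 6.23), and Mki67 had 93.8, 122 and 108 CPM in the 3-week NICD1/Akt livers, against 2.16, 0.70 and 1.58 CPM in control livers. Turnover genes moved both ways, as did all genes tested (38.9% higher and 33.1% lower). Of 7 tested genes for SCF-dependent turnover of cyclin E and p27, 4 were higher and 1 lower (median 0.42). Skp2, which directs p27 to degradation, changed by 2.12 ± 0.31, so that Skp2 and Cdkn1b RNA were higher in the same livers, and Cul1, the SCF scaffold, by -0.36 ± 0.08. Of 10 genes for D cyclin degradation and CDK activation, 5 were higher and 4 lower (median 0.43). The D cyclin ligase gene Fbxo4 changed by -1.67 ± 0.13, the inhibitory CDK kinase gene Wee1 by 2.48 ± 0.19 and the phosphatase gene Cdc25b by 4.92 ± 0.34. Cdc25c had 270 counts in NICD1/Akt livers, against 0 counts in control livers, at least 42.2-fold higher by a floor of 3 counts over the control group. Cdc25c thus passed the filter on low counts only through the NICD1/Akt livers. The other lower genes, named after their values were seen, were Ambra1 (-0.38 ± 0.08), a ligase receptor for D cyclins, and the CDK-activating kinase genes Ccnh (-0.54 ± 0.11) and Cdk7 (-0.32 ± 0.12). Scaled by library size alone, none of the 7 tested SCF genes and 1 of the 10 genes for D cyclin degradation and CDK activation was lower. Of all 13408 genes tested, 9076 were then called higher and 1287 lower. At 3 against 2 weeks, medians in control and NICD1/Akt livers were -1.99 and 0.73 for S phase genes and -3.42 and 0.92 for mitotic genes. Library 35 weighed on the NICD1/Akt medians. Summed CPM of the mitotic genes were 109, 83.0 and 351 in libraries 33, 34 and 35, against 323 to 432 in NICD1/Akt livers at 3 weeks. For S phase genes they were 198, 153 and 357, against 318 to 449. Fbxo4 changed by 1.19 and -0.54, Cdc25b by -3.06 and 0.52, and Wee1 by -0.29 and 1.13. The part of the control livers was not tested here either.

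**Figure D5:**
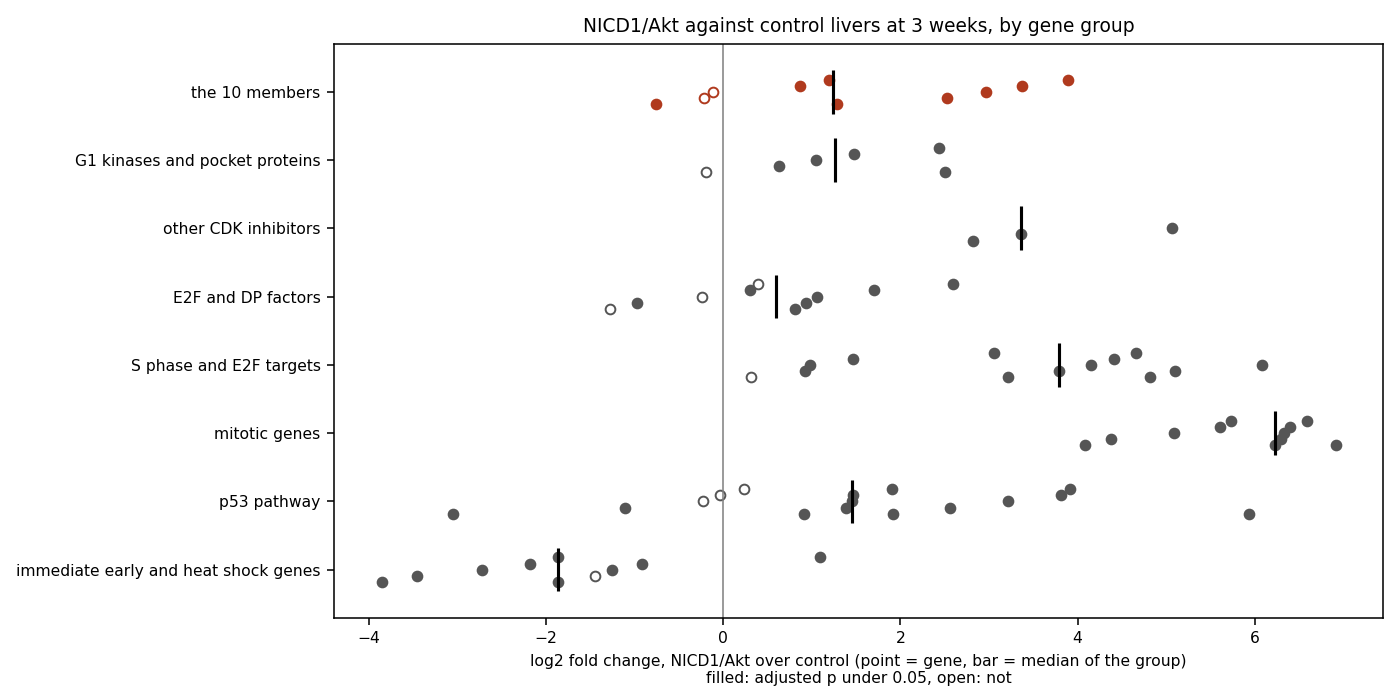
Log2 fold change of NICD1/Akt over control livers at 3 weeks (horizontal axis) for the 10 members and 7 lists of related genes (rows). Each point is a gene, filled where the adjusted p was under 0.05, and each bar is the median of its list. Medians were 1.24 for the members, 6.23 for the mitotic genes and -1.86 for the immediate early and heat shock genes.

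Most other genes of the p53 pathway were higher at 3 weeks, when 38.9% of all genes tested were called higher and 33.1% lower. Of 16 p53 pathway genes 11 were higher and 2 lower (median 1.45), and 14 and 1 when scaled by library size alone. Under that scaling 9076 of 13408 genes tested were called higher and 1287 lower. Phlda3, an inhibitor of AKT, had 23.3, 33.5 and 26.3 CPM in the 3-week NICD1/Akt livers, against 0.52, 0.52 and 0.42 CPM in control livers. Eda2r (3.92 ± 0.22), Sesn2 (1.91 ± 0.12) and Zmat3 (1.90 ± 0.10) were also higher. The 2 lower genes, named after their values were seen, were the antiproliferative gene Btg2 (-3.05 ± 0.35) and Trp53inp1 (-1.11 ± 0.22). In control livers at 3 weeks against 2 weeks, 3 of the 16 genes were called higher and 6 lower. Btg2 (3.83) was among the higher, and Phlda3 (-3.50) and Sesn2 (-1.94) were among the lower. Eda2r (-1.24), Zmat3 (-0.35) and Trp53inp1 (0.33) were not called there. Of 8 FoxO factors and targets 4 were lower and none higher (median -0.26), but 1 lower and 4 higher (median 0.43) when scaled by library size alone. Of 7 Myc family genes 2 were higher, among them Mycn (2.83 ± 0.47), and 3 lower, among them Myc (-2.56 ± 0.56), with a median of -0.18, but 5 were higher and 1 lower (median 0.52) when scaled by library size alone. At 2 weeks no gene of any of these lists was called in edgeR.

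Genes with the most similar profile were sought among 10346 genes of at least 5 CPM on average, by the root mean square difference of centred log2 CPM over the 12 libraries. For Ccnd1 these were Pold1 (0.16), a DNA polymerase subunit, Rgs19 (0.17) and Cdt1 (0.19), a replication licensing factor, beside an SD of 1.24 of Ccnd1 itself. Cdkn2c lay nearest to Lzts2 (0.14), Tbx20 (0.18) and Arrdc1 (0.19). Cdkn1b was nearest to Dcp2, Sppl2b and Ttc3 (0.10 to 0.12), and Ccnd2 to Inppl1, Yes1 and Ice1 (0.11 to 0.14). Cdkn1c lay nearest to Mest (0.32), which is imprinted like it, Notch3 (0.34) and Gucy1b1 (0.37), beside its own SD of 0.82. Cdkn1a was nearest to Slc36a4, Hsp90b1 and Pkp2 (0.23 to 0.24, beside its own SD of 0.46). Ccne1 lay nearest to Isyna1 (0.37, beside its own SD of 0.80), Ccne2 nearest to Myef2 (0.21), and Ccnd3, which varied little (SD 0.17), to Daxx (0.09).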

How the data were processed

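RNA of 12 mouse livers in 4 groups of 3 was measured by stranded mRNA sequencing. The authors deposited raw counts per Ensembl gene, in 1 table per stage. The submitters' processing notes name STAR 2.7, Subread 2.0.6 and GRCm39, whereas the methods text names HTSeq, and whether counting used the strand is not given in the sources used here. Depth was 13136892 to 19594839 counts per library. Symbols were matched for 21573 of 21807 genes. Counts were analysed in R 4.3.3 with edgeR 4.0.16 (TMM, filterByExpr with default settings, quasi-likelihood F test, Benjamini-Hochberg adjustment over all genes tested, threshold 0.05). Each stage was fitted alone, and the stage comparisons were fitted over all 12 libraries. A count interval for Cdkn2a is an exact 95% interval and covers counting error only. Scripts were tested on simulated data. Alternatives were DESeq2 size factors, library size only, no filter on low counts, DESeq2 1.42.0, the likelihood ratio test, other control sets, other sets of libraries and leaving out each library.

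The 10 genes and all lists were chosen with earlier results of these data known. All 10 members are named; of each list, up to 4 genes with the smallest adjusted p at 3 weeks are named, and Cdk2, Cdk4, Cdk6, Rb1, E2f1, Skp2 and Mki67 always. Exon overlaps and lengths come from GENCODE M21 and promoter windows from RefSeq (GRCm38.p6), and no coordinate of the counted annotation was used. Promoters of Ccnd1, Ccnd2, Ccne2 and Cdkn1c were not analysed here. Libraries of a group differed by more than sampling noise and were all kept.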

Additional observations from a re-analysis of the deposited data

Results flagged for a closer look

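For 5 members the effect of NICD1/Akt differed between stages by the test of the difference in effects (log2 effect at 3 weeks less that at 2 weeks, edgeR's quasi-likelihood test over 12 libraries). The difference was 2.44 for Ccnd1 (adjusted p = 0.0025), 2.25 for Cdkn1c (adjusted p = 0.0134), 1.93 for Cdkn2c (adjusted p = 0.0202), 0.80 for Cdkn1b (adjusted p = 0.0152) and -1.22 for Cdkn1a (adjusted p = 0.0373). Ccnd1, Cdkn2c and Cdkn1a were also called between the control livers of 3 and 2 weeks. The difference of Cdkn1a was called in only 8 of 17 alternatives, and its change between control livers in 7 of 12. No explanation was tested.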

How the results depend on the processing

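At 3 weeks the count of 8 called members was 8 in all 6 fits without 1 library, and the 7 higher members were called in all 14 alternatives. At 2 weeks 0 members were called in these fits, and 1 with the 5 controls other than library 32, an alternative chosen after seeing the data. The count for the difference between stages, 5, ranged from 3 to 5 without 1 library (3 without library 10). For 3 against 2 weeks in NICD1/Akt livers, the count of 3 ranged from 1 (without library 33 or 1) to 6 (without library 35), and was 1 with the 6 libraries alone. For control livers, the count of 4 ranged from 2 (without library 30) to 3, and was 2 with library size only.

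Signs turned for values that were not called in the main fits. With library size only, Ccnd3 was 0.59 (called) and Ccne1 0.50 at 3 weeks, Ccnd3 0.21 in the difference, Ccnd3 0.076 and Cdkn1a 0.11 between stages in NICD1/Akt livers, and Ccnd2 -0.055 and Ccnd3 -0.13 between stages in controls. Ccne1 at 3 weeks was 0.33 with all 6 controls, 0.40 with 5 controls and -0.49 to 0.44 without 1 library. Cdkn1a at 2 weeks was -0.12 with all 6 controls and -0.25 with 5 controls. Without 1 library, Ccne1 between stages in NICD1/Akt livers ranged from -0.12 to 0.60, and in controls Ccnd3 from -0.059 to 0.14, Ccne2 from -0.41 to 0.30 and Cdkn2a from -1.63 to 0.25. The causes were not tested. With library size only, 87.6% of called genes were higher at 3 weeks, against 54.1% with TMM, 92.2% against 48.8% in the difference, 78.5% against 38.9% between stages in NICD1/Akt livers and 29.6% against 46.1% in controls. No paired analysis was possible because the groups share no replicate numbers. Depth limits Cdkn2a, with 3 counts in all control livers of 3 weeks, and also Ccne1, Ccne2 and Cdkn1c, with 136, 68 and 67 counts there.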
